A study of Mus musculus with 800 samples.

Results

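Of 400 Tomato+ cells sorted from the embryonic mouse retina, 73 had more than 20% of their counts in mitochondrially encoded genes and the others had at most 20%. The first are called high-mitochondrial and the second intact, a word that names the side of the division only, since no measure of membrane integrity was used. The sides were chosen by this measured share, so every value given for them is a description, and no test was made between them. All 400 cells had at least 1000 genes with a count, the lowest having 1067. The same division of the 400 Tomato- cells of the series, which played no part in choosing the genes named, gave 38 high-mitochondrial cells, with the others intact. The series holds 800 cells in all.

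The cells came from C57BL/6 mice carrying Sert-Cre, taken at E15.5, and all groups share this background. The Sert-Cre driver is that of the serotonin transporter gene Slc6a4, known in the embryonic retina from retinal ganglion cells (RGCs) that project to the same side of the brain. The labels give Tomato+ or Tomato- as the genotype and do not describe the reporter allele or the sorting gate. Retinas were pooled and digested with papain before sorting, and the labels name SmartSeq2 for libraries that the series title ascribes to C1. Because no label ties a cell to an animal, each side is 1 pool of cells without replicates. Cell titles carry a number from 1 to 10 for Tomato+ and from 11 to 20 for Tomato-, called the title number here, with 40 cells each. What this number stands for is not given in the sources used here, and its spread serves only as a measure of how alike subsets of cells are.

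Mitochondrial transcripts are made and kept inside the organelle, while messages of nuclear genes are spliced in the nucleus and exported to the cytosol for translation. Some noncoding RNAs, such as Malat1, Meg3 and Kcnq1ot1, are known to stay in the nucleus. A high mitochondrial share is widely used as a filter in single-cell work because a cell with a damaged membrane can lose RNA from its cytosol. Whether this happened in these cells was not tested.

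Counts outside the mitochondrial genes and the 18S ribosomal RNA gene Rn18s-rs5, called scaled counts, were fewer in the high-mitochondrial Tomato+ cells. Their median was 65656 (31332 to 124604) against 249544 (8994 to 597958) in the intact cells. All 73 high-mitochondrial cells lay below the intact median. The mitochondrial share itself had medians of 26.7% and 5.69%. Near the limit, 10 intact cells lay between 15% and 20%, up to 19.9%, and 25 high-mitochondrial cells between 20% and 25%, from 20.1%. Genes with a count numbered 2189 at the median against 4550. After thinning to 50502 scaled counts per cell, which left out 16 high-mitochondrial and 24 shallower intact cells, the medians were 2090 and 3581. The 18S share of all counts was 0.579% against 2.62%. High-mitochondrial cells were found in every title number, from 2 to 16 of 40 cells, and title numbers 8 and 10 held 13 and 16 of them. Values within title numbers are given for the 9 with at least 3 such cells. Pooled over cells, the scaled counts came to 4857164 and 78598569, and counting intervals below cover counting error only.

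The make-up of the counts differed between the sides in nearly every cell. Ribosomal protein genes took 1.02% of the scaled counts of the median high-mitochondrial cell (0.335% to 4.80%) and 5.08% of the median intact cell (0.560% to 17.8%). The 30 cytosolic housekeeping genes took 1.30% against 4.81%, and the nuclear-encoded genes of the respiratory chain 0.632% against 3.58%. For each of these 3 groups, 73 of 73 high-mitochondrial cells lay below the intact median. Malat1, a long noncoding RNA of nuclear speckles, took 3.36% against 2.02%, with 66 of 73 cells above the intact median. Annotated noncoding genes that lie inside introns of coding genes took 2.55% against 0.489%, with 72 of 73 cells above. Within each of the 9 title numbers, the median of the high-mitochondrial cells was on the same side of the median of the intact cells for all 5 measures.

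**Figure D1:**
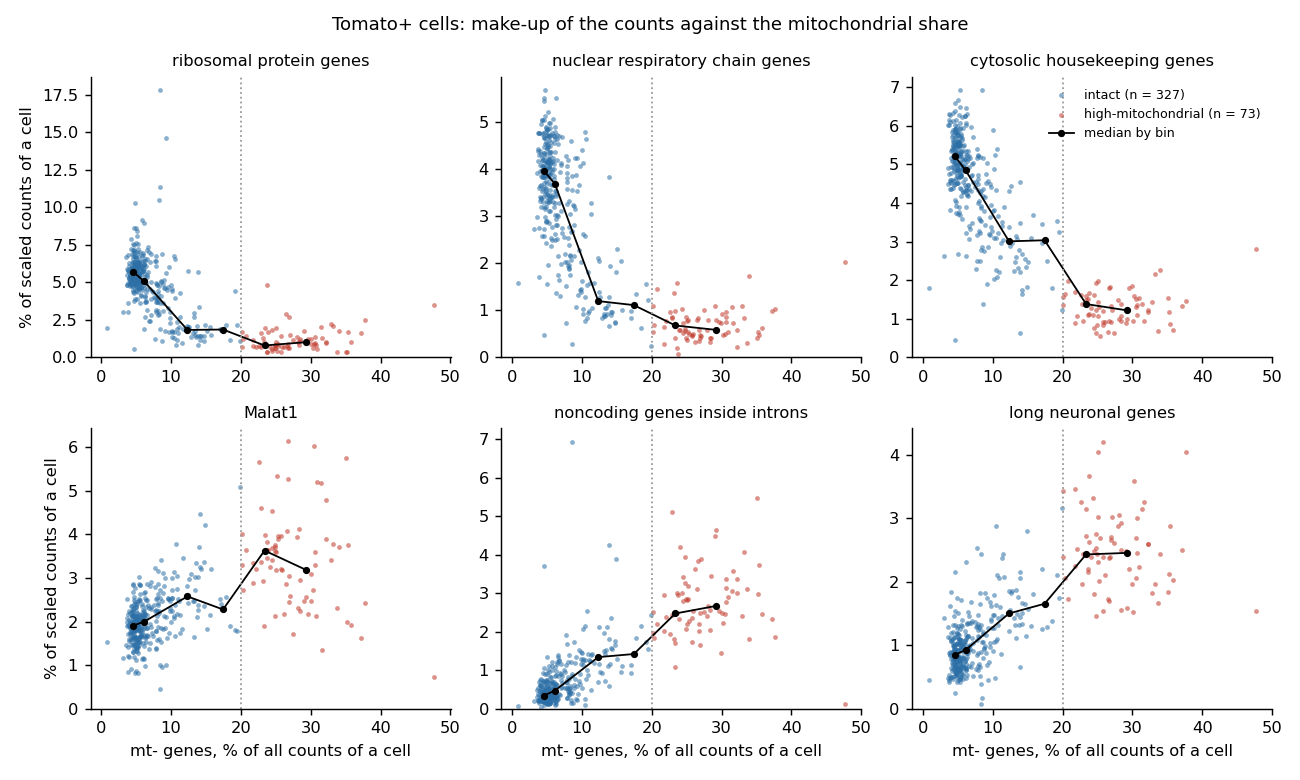
Each panel plots 1 gene group as % of the scaled counts of a cell (vertical axis) against the mitochondrial % of all counts of that cell (horizontal axis), for the intact (blue) and the 73 high-mitochondrial (red) Tomato+ cells, with the division at 20% dotted and medians of bins of mitochondrial share in black. The upper 3 groups are lower and the lower 3 higher to the right of the division, and the 1 cell at 47.7% lies with the intact cells in several panels.

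The shares differed between bins below the limit as well as across it. In bins up to 5%, 5 to 10%, 10 to 15%, 15 to 20%, 20 to 25% and 25 to 40%, of which the last 4 held 42, 10, 25 and 47 cells and the first 2 the rest, the ribosomal protein medians were 5.71%, 5.07%, 1.83%, 1.86%, 0.7998% and 1.02%. Intronic noncoding genes had medians of 0.340%, 0.474%, 1.34%, 1.42%, 2.47% and 2.67% in the same bins. Much of the step lay below the limit, between the cells under and over 10%. Within the 73 high-mitochondrial cells the shares hardly followed the mitochondrial share, with a Spearman's rho across cells of 0.166 for ribosomal protein and 0.185 for intronic noncoding genes. The 1 cell over 40%, with 47.7% mitochondrial counts, had 3.48% ribosomal protein, 0.122% intronic noncoding and 0.718% Malat1 counts. It sided with the intact cells on these 3 measures.

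Depth moved with the mitochondrial share, so intact cells within the range of scaled counts of the high-mitochondrial cells were set beside them, a choice made after seeing the data. There were 33 such Tomato+ cells, and their median mitochondrial share was 13.3%. Only the range was matched, and their median of 81295 scaled counts was still above the 65656 of the high-mitochondrial cells. Their ribosomal protein share was 1.79%, their respiratory chain share 1.05% and their intronic noncoding share 1.41%. Each median lay between those of the high-mitochondrial cells and of all intact cells. Of the 73 high-mitochondrial cells, 11 lay above the ribosomal protein median of these 33 cells and 71 above their intronic noncoding median.

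Across genes, log2 ratios are high-mitochondrial over intact, taken on pooled CPM (counts scaled to 1 common total of scaled counts) with 10 CPM added to each side, which understates the ratios of low genes. Genes were described where the mean of the sides was at least 10 CPM and at least 10% of Tomato+ cells had a count, which left 8493. Their median was 0.11, with 1743 genes at least 2-fold higher (20.5%) and 1877 at least 2-fold lower (22.1%). A ratio at least 2-fold either way is what "higher" and "lower" mean in the counts below. Scaling by TMM factors moved the median of all genes to -0.14, and of the 2-fold genes 34.05% were then higher, against 48.1% as given here. With median-of-ratios factors these values were -0.06 and 38.6%. Counts within the lists below are to be read beside the 20.5% and 22.1%.

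Nuclear noncoding RNAs were the list with the most positive median, 1.84 over the 12 of 22 that were described, with 9 higher and none lower. Malat1 is on chr19:5795690-5802672 (minus strand, GRCm38, as are all positions here, from GENCODE M21). It had 30743, 35562 and 38363 CPM as the lowest, median and highest of 9 title numbers in high-mitochondrial cells, against 17728, 20421 and 21570 in intact cells. The ranges did not overlap, and the log2 ratio was 0.77 (SD 0.19 over 9 title numbers). Meg3, an imprinted noncoding RNA of neurons at chr12:109541001-109571726, had 2429, 5154 and 7482 CPM against 830, 1072 and 1238. It too did not overlap, and its ratio was 2.34 (SD 0.55). Kcnq1ot1, the imprinted antisense RNA at chr7:143203458-143296549 that silences neighbouring genes, had 1794, 2043 and 2886 CPM against 274.9, 357.7 and 519.5. Its ratio was 2.64 (SD 0.44), and the 95% Poisson intervals of the pooled 2259 and 353.2 CPM were 2217 to 2302 and 349.1 to 357.4. Miat (2.34) and Snhg14 (2.11) were above 0 in 9 of 9 title numbers, as were Rian (1.92), an RNA of the same imprinted cluster as Meg3, and Snhg11 (1.58). Tug1 (-0.27) and Peg13 (-0.34) did not share this pattern. Summed over the list, CPM ran from 42918 to 52238 in high-mitochondrial and from 20940 to 25068 in intact cells.

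The class of gene went with the ratio more broadly. Of the described noncoding genes inside an intron of a coding gene, 87.2% were higher and 1 gene was lower, with a median of 1.84. The 79 noncoding genes outside coding genes had a median of 0.93, and the 61 that overlap a coding exon 0.66. Among 8123 coding genes, with a median of 0.07, 18.7% were higher and 22.5% lower. All but 17 of the intronic genes lie on the strand of their host. Counts of these same-strand genes cannot be told apart from unspliced RNA of the host, whether or not the counting used strand. Use of strand is not stated, so the same holds for the 17 on the opposite strand.

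**Figure D2:**
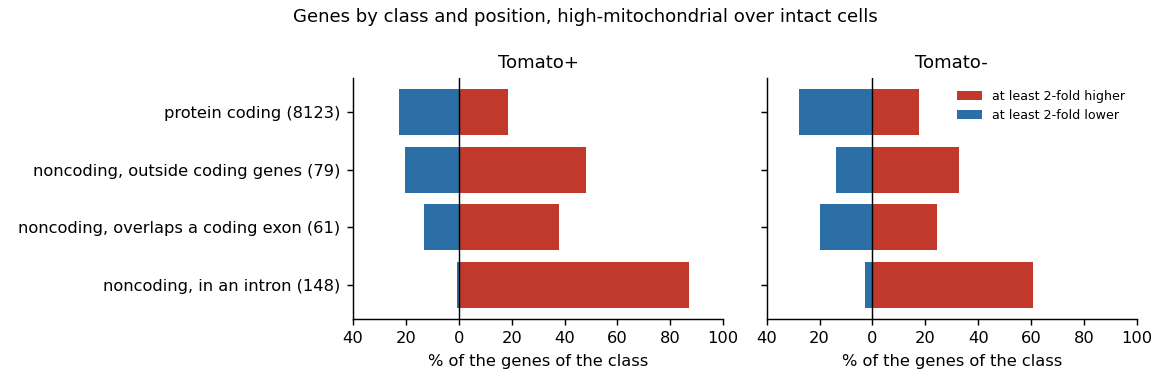
Bars give the % of the genes of each class that were at least 2-fold higher (red, to the right) or lower (blue, to the left) in high-mitochondrial cells, with the number of genes described in brackets, for Tomato+ (left) and Tomato- cells (right). Noncoding genes inside introns are higher in 87.2% of cases in Tomato+ and 60.8% in Tomato- cells, while coding genes are near the shares of all genes.

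Paired with their hosts, 140 intronic noncoding genes lay in 80 coding genes that were themselves described. The noncoding ratio was above that of the host in 84.3% of the 140 pairs, with medians of 1.86 and 0.87. The limit of the filter given above applies to the noncoding genes of these pairs too. Of the hosts, 36 were higher and 3 lower. Ank2, which encodes the membrane adaptor ankyrin-B, illustrates this with 11 intronic genes. Its own ratio was 1.41, and those in its introns ran from 0.60 for Gm43765 and 0.92 for Gm42969, both below the host, to 2.36 for Gm42971. In Ctnna2, which encodes the adhesion protein alpha-N-catenin, the host stood at 0.84 and its intronic genes between 0.30 for Gm44234 and 3.03 for Gm44435. Pairs within 1 host share its transcription and are not independent.

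Long neuronal genes, a list of large genes of axons and synapses, had a median of 1.37 over 26 described of 30, with 18 higher and none lower. Ank2 had 4220, 5897 and 9495 CPM over title numbers in high-mitochondrial cells and 1938, 2212 and 2524 in intact cells. Kif1b, a kinesin motor that carries vesicles and mitochondria along axons, had 1973, 2783 and 3966 against 570, 697 and 1113. Neither gene's ranges overlapped, and the ratios were 1.41 (SD 0.30) and 1.94 (SD 0.34). Ank3, encoding the ankyrin of the axon initial segment, stood at 1.74 and the cytoskeletal crosslinker Macf1 at 1.67. Both were above 0 in 9 of 9 title numbers. Ncam1, a neural adhesion gene, was at 0.82 and so under the 2-fold limit, and Robo1, a Slit receptor, was at -0.43 with 17.3 against 26.8 CPM.

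Splicing factor genes known for introns that are kept in nuclear transcripts had a median of 0.88, with 14 of 30 higher and 1 lower. Luc7l2, of the U1 snRNP, had 543 to 1364 CPM over title numbers against 230.03 to 378.5, without overlap. Its ratio was 1.98, and that of the cyclophilin-like gene Nktr was 1.89. Srsf3, an SR splicing factor gene on the same list, went the other way at -1.83. Genes of chromatin proteins had 7 of 30 higher (23.3%) and 5 lower (16.7%), near the 20.5% and 22.1% of all genes. Their median was 0.70. The higher ones included Bptf, of the NURF remodeller (1.84), Kmt2a, a histone methyltransferase gene (1.71), and Setd5 (1.72). The lower ones included Hmgb1 (-2.41), H2afz (-2.21) and H3f3b, a histone H3.3 gene (-2.06).

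At the other end stood genes whose products serve the cytosol and the respiratory chain. Of 80 described ribosomal protein genes, 76 were lower and none higher, with a median of -2.23. Rpl41, encoding the smallest protein of the large subunit, had 78.6, 490 and 935 CPM over title numbers in high-mitochondrial cells and 2323, 2546 and 3040 in intact cells. Rps26 had 38.6, 86.2 and 255.3 against 1114, 1359 and 1532. Neither gene's ranges overlapped, and the ratios were -2.32 (SD 0.99) and -3.43 (SD 0.92). Rps4x (-0.61) and Rpl12 (-0.53) were among the 4 that were not 2-fold lower, and Rps4x spread from 67.03 to 5553 CPM over the title numbers of the high-mitochondrial cells. Summed, the ribosomal protein genes held 8449 to 15923 CPM against 47860 to 57821. Of 22 translation factors, 16 were lower and none higher (median -1.71), among them the elongation factor gene Eef1a1 at -2.35 and the start codon factor gene Eif1 at -2.54.

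**Figure D3:**
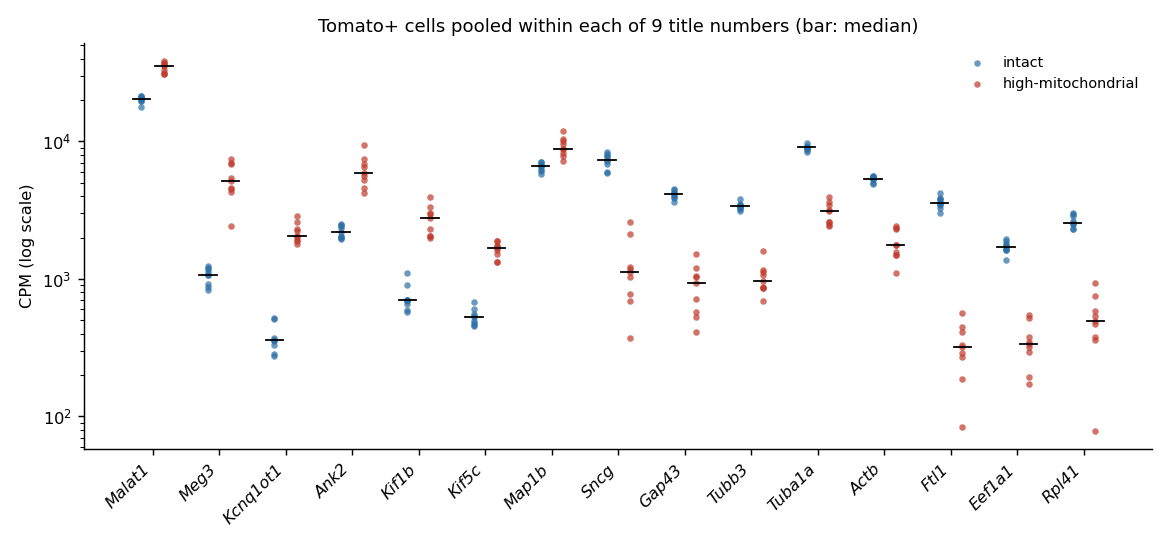
CPM on a log scale for 15 genes in high-mitochondrial (red) and intact (blue) Tomato+ cells pooled within each of 9 title numbers, with a bar at the median. The points of the first 7 genes, Malat1 to Map1b, lie higher in the high-mitochondrial cells and those of the other 8 lower, with no overlap between the colours for these genes.

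Nuclear-encoded genes of the respiratory chain had a median of -2.40, with 65 of 72 described members lower and none higher, although the mitochondrial genes that encode partner subunits define the other direction of the division. Cox4i1, of complex IV, had 15.7, 337.2 and 836 CPM against 1386, 1615 and 1948, with a ratio of -2.40 (SD 1.51). Uqcrq, of complex III, was at -4.18 and Atp5o, of the ATP synthase, at -3.82. Sdha (0.90) and Ndufs1 (0.75), which encode large subunits of complexes II and I, were above 0, and 81.2% of the Sdha counts of the high-mitochondrial cells came from 5 cells. Genes of mitochondrial import, matrix and carriers were lower in 21 of 39 and higher in none (median -1.17). Among them Slc25a4, the adenine nucleotide carrier, was at -2.61.

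Cytosolic housekeeping genes were lower in 27 of 30 and higher in none, with a median of -1.79. Ftl1, the ferritin light chain gene, had 83.8, 321.7 and 565 CPM against 2993, 3564 and 4249. Tuba1a, the main alpha-tubulin gene of young neurons, had 2447, 3132 and 3920 against 8330, 9038 and 9819. The ranges were apart in both, and the ratios were -3.34 (SD 0.76) and -1.65 (SD 0.24). Ubb, a ubiquitin gene (-3.32), and Tmsb4x, encoding an actin-binding thymosin (-3.03), were also below 0 in 9 of 9 title numbers. The glycolytic genes Pkm (-0.37) and Gpi1 (0.23) were the members nearest to 0. Genes of the endoplasmic reticulum, whose messages are translated at its membrane, had a median of -0.68 with 14 of 29 lower and none higher. Their small members Spcs1 (-3.08) and Dad1 (-2.90) were lower, while the chaperone genes Hspa5 (-0.62) and Canx (-0.50) were not.

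**Figure D4:**
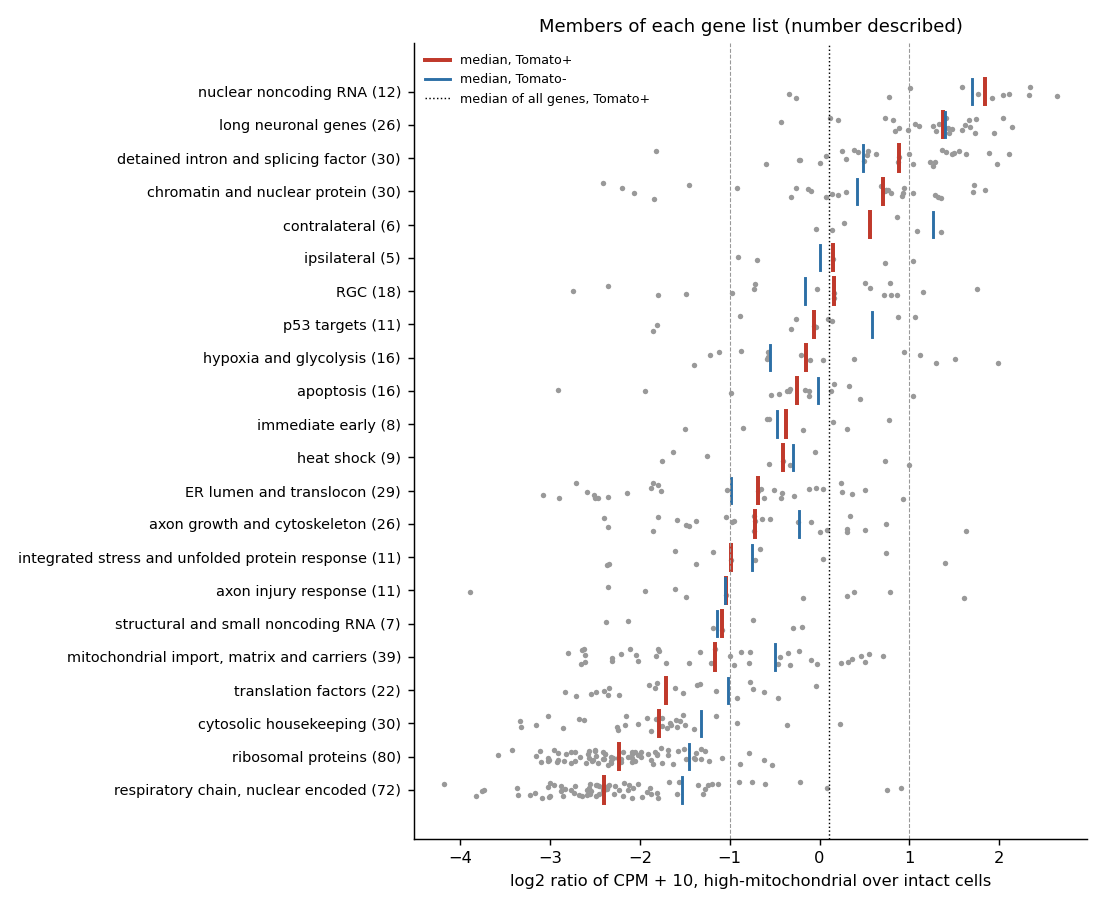
Grey points give the log2 ratio of each described member of the gene lists in Tomato+ cells, with the list's median in Tomato+ (red) and Tomato- (blue) cells, and dashed lines mark 2-fold. The list medians run from 1.84 for nuclear noncoding RNAs to -2.40 for the respiratory chain in Tomato+ cells, and both groups keep these lists at the ends.

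Set against the 33 intact cells in the same range of depth, these list medians kept their sign and were smaller. Nuclear noncoding RNAs stood at 0.77, long neuronal genes at 0.81 and splicing factor genes at 0.22. Ribosomal proteins were at -0.97, translation factors at -0.83, the respiratory chain at -0.85 and cytosolic housekeeping genes at -0.89. Of the genes named above, Meg3 (1.13), Kif1b (1.41), Luc7l2 (1.03), Rps26 (-1.23), Eef1a1 (-1.34) and Ftl1 (-1.52) remained past 2-fold. Kcnq1ot1 (0.77), Ank2 (0.39), Ank3 (0.91), Setd5 (0.68), Cox4i1 (-0.73) and Tuba1a (-0.89) did not, and Ncam1 went to -0.11 and Rps4x to 1.48. The same setting took genes named below under 2-fold, with Sncg at -0.64, Stmn2 at -0.50, Ebf1 at 0.81, L1cam at 0.78, Asns at -0.07, Bax at -0.76 and Gal at -0.73, while Reln was at 1.69 and Edf1 at -2.41. Those 33 cells also had a higher mitochondrial share than the other intact cells, so depth and mitochondrial share cannot be told apart in them.

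The marker genes of RGCs, the neurons that send axons from the retina to the brain, were divided. All 73 high-mitochondrial and 99.7% of the intact Tomato+ cells had at least 5 counts of at least 3 of 20 RGC markers. By the same measure 97.4% of high-mitochondrial and 92.8% of intact Tomato- cells carried them, so it does not set the labelled cell type apart. Over the 18 RGC markers described in Tomato+ cells, 2 were higher (11.1%) and 4 lower (22.2%, beside 22.1% of all genes). Their median of 0.16 became -0.14 with TMM factors. Sncg, encoding gamma-synuclein, had 373.98, 1127 and 2578 CPM against 5860, 7353 and 8330, a ratio of -2.75 (SD 0.83). Gap43, of the growth cone membrane (-2.36), and the tubulin gene Tubb3 (-1.79) were lower, as was the microtubule regulator gene Stmn2 (-1.49). The transcription factor genes Pou4f2 (-0.03, SD 1.67) and Isl1 (0.16, SD 0.63) had ratios well within their spread. Ebf1, another transcription factor gene, was at 1.15 (SD 0.26), with 1600, 2327 and 2724 CPM against 873, 1064 and 1211, and the adhesion gene L1cam at 1.75 (SD 0.66). Summed RGC marker CPM was 15206 to 19166 against 28676 to 31747, lower in 9 of 9 title numbers even though the median ratio was near 0.

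Axon growth and cytoskeleton genes showed the same division by gene. Stmn1 had 481, 829 and 1111 CPM against 3579, 4249 and 4410, a ratio of -2.40 (SD 0.38). Kif5c, a kinesin heavy chain gene of neurons, had 1317, 1687 and 1891 against 453, 531 and 680, a ratio of 1.63 (SD 0.26). Map1b, a microtubule-associated protein gene, had 7174, 8807 and 11878 against 5800, 6650 and 7146, a ratio of 0.50 (SD 0.19). These ranges did not overlap. Of 26 members, 9 were lower and 1 was higher (median -0.72). Of the genes for guidance at the optic chiasm, the 5 described ipsilateral members had a median of 0.15, and Slc6a4 stood at 0.73 with 194.97 against 113.9 CPM and 68.6% of its high-mitochondrial counts in 5 cells. The 6 contralateral members had a median of 0.57. TMM factors took the ipsilateral median to -0.14 and the contralateral one to 0.27.

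Genes of stress and death responses were not higher as groups. Of the integrated stress and unfolded protein responses, 5 of 11 described were lower and 1 was higher (median -0.98). Atf4, their central transcription factor gene, was at -0.98, its target Asns, encoding asparagine synthetase, at -2.37, and Ddit3, the CHOP gene, at -1.61 with 2.26 against 27.5 CPM. Vldlr, a lipoprotein receptor gene, was the higher one at 1.39. Of heat shock genes, 3 of 9 were lower and 1 was higher, and the co-chaperone gene Dnaja1 stood at -1.76 and the chaperone gene Hspa4l at 1.00. Among apoptosis genes, 2 of 16 were lower and 1 was higher (median -0.25), with the death-promoting genes Bad at -2.91 and Bax at -1.94 and the protective gene Bcl2 at 1.04. The Bcl2 value rested on few cells, with 99.4% of its high-mitochondrial counts in 5 cells, and became -0.19 without title number 10. These 12.5% lower are below the 22.1% of all genes. Of p53 targets, 2 of 11 were lower and 1 was higher, and Cdkn1a, the p21 gene, was at -1.86 and Zmat3 at 1.07. Of 28 immediate early genes, a class that tissue dissociation can induce, 8 were described, with 1 lower and none higher. Genes of the response to axon injury were lower in 6 of 11 and higher in 1 (median -1.04), and Gal, the galanin gene, was at -3.90. Of 16 described hypoxia and glycolysis genes, 4 were higher (25%) and 3 lower (18.75%), near the 20.5% and 22.1% of all genes. Their median was -0.16. Their summed CPM was 2694 against 1375, higher in 9 of 9 title numbers, but a large part of the high-mitochondrial sum was 1 gene, Pfkp. The sum therefore does not describe the list as a group. Pfkp, a phosphofructokinase gene, had 959, 1751 and 3071 CPM against 399.5, 477 and 533 and a ratio of 1.99 (SD 0.61). Of 7 described structural and snoRNA host RNAs, 4 were lower and none higher (median -1.08), among them Rpph1, the RNA of ribonuclease P, at -2.38. Of the loci that overlap ribosomal RNA repeats, Gm26917 was at 2.13 and Lars2, a mitochondrial leucyl-tRNA synthetase gene, at -0.77.

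The 10 highest and 10 lowest ratios with the same sign in at least 80% of title numbers differed in how many cells carried them. Among the highest, Reln, encoding the secreted protein reelin, had 2413, 2694 and 4191 CPM against 325.3, 420.2 and 689, a ratio of 2.63 (SD 0.41). Kcnq1ot1 was the other one of at least 1000 CPM. Others of the 10 were Kcp (3.33), Tom1l1 (2.64), the semaphorin receptor gene Plxna3 (2.50), the matrix protein gene Fras1 (2.49), Vwa5b2 (2.40) and the tafazzin gene Taz (2.38), at 218.2 to 624 CPM. In these 6, between 32.1% and 77.4% of the high-mitochondrial counts came from 5 cells, against 17.4% for Reln. Kcp, Tom1l1 and Vwa5b2 also overlap other genes in the annotation. The lowest were Edf1 (-4.50), the proton pump gene Atp6v1f (-4.31), Uqcrq (-4.18), the RNA polymerase II gene Polr2j (-4.05), the mitochondrial ribosome genes Mrpl54 (-4.01) and Mrps17 (-3.84), Hsbp1 (-3.91), the outer mitochondrial membrane gene Cisd1 (-3.90), Gal (-3.90) and Atp5o (-3.82). All 10 were below 0 in 9 of 9 title numbers. Edf1, encoding a translation-associated coactivator, had 0, 4.98 and 10.1 CPM against 203.6, 338.4 and 382.2.

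Transcript length went with the ratio among the 8123 coding genes, of which lengths came from GENCODE M21. In quintiles from the shortest transcripts (up to 1898 bases) to the longest (5720 to 123179 bases), the medians were -1.31, -0.28, 0.16, 0.39 and 0.85. The share of lower genes fell from 58.8% in the first to 2.83% in the last quintile, and that of higher genes went from 3.14% to 42.1%. Intron length gave medians of -0.85 to 0.67 and the number of exons -0.80 to 0.85, while the GC content of the transcript gave -0.01 to 0.19 in no order. Spearman's rho across genes, which are not independent, was 0.571 for transcript length, 0.479 for exon number, 0.411 for intron length and 0.011 for GC. Within the third of genes with the shortest transcripts, medians were -1.19 for short and -0.46 for long introns. Within the third with the longest, they were 0.30 and 0.82. Ribosomal protein messages are known to be short, and the long neuronal list was made of large genes, so list and length overlap. Ribosomal proteins had a median of -2.23 with 95% lower, beside -1.31 and 58.8% in the shortest quintile. The long neuronal list had 1.37 with 69.2% higher, beside 0.85 and 42.1% in the longest. What list and length each contribute was not tested.

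**Figure D5:**
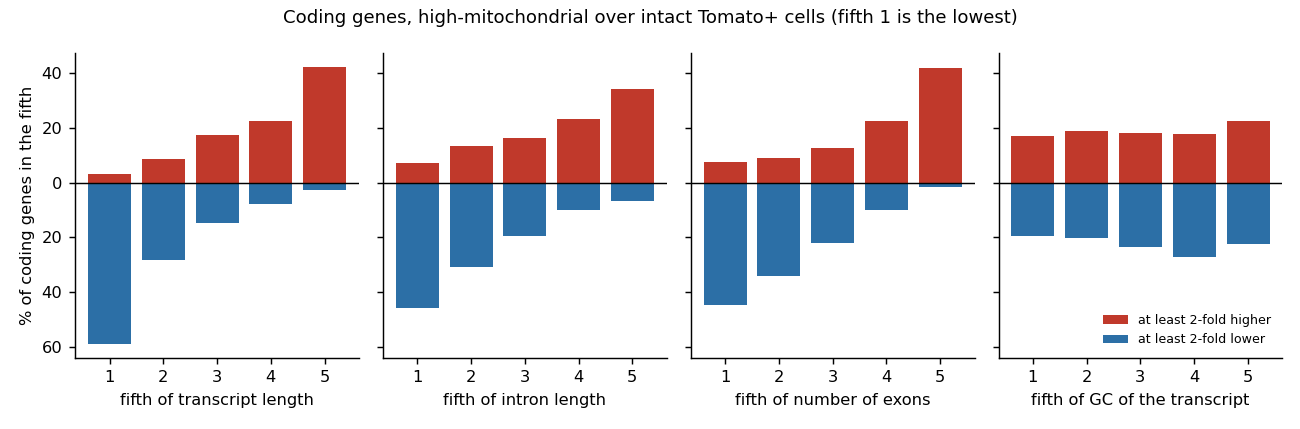
Bars give the % of coding genes in each quintile of transcript length, intron length, number of exons and GC content that were at least 2-fold higher (red, upward) or lower (blue, downward) in high-mitochondrial Tomato+ cells. The share of lower genes drops from 58.8% to 2.83% over the quintiles of transcript length, and GC content shows no such order.

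Within the mitochondrial counts that define the division, the ribosomal RNA mt-Rnr2 made up 57.2% in high-mitochondrial and 59.4% in intact cells and mt-Rnr1 20.1% and 16.3%. Of the messages, mt-Co1 made up 1.67% and 1.93%, mt-Cytb, of complex III, 6.42% and 7.36%, and mt-Nd1, of complex I, 5.56% and 5.95%. The genes mt-Co2, mt-Co3, mt-Atp6 and mt-Nd4l, which encode subunits of complexes IV, V and I, held 12 of 14482896 mitochondrial counts over all cells. Each of these 4 is identical over at least 98.99% of its length to an annotated copy in the nuclear genome on chromosome 1 (Gm28661, Gm28437, Gm10925 and Gm10222), and those copies were near 0 too. Other genes did not follow this pattern. mt-Atp8, without such a copy among those compared, also had 0 counts. mt-Nd4, identical to the copy Gm28439 over 63.6% of its length, had 394560 counts. How reads with several positions were counted is not given in the sources used here. The first 60 bases of mt-Co2 (chrM:7013-7072, plus strand) are shown beside its identical copy Gm28661 (chr1:24615506-24615565, minus strand) and its diverged copy Gm13341 (chr2:22587903-22587962, minus strand). Capitals mark where the copy differs from mt-Co2, and the sequences are those of the GENCODE M21 transcripts.
mt-Co2: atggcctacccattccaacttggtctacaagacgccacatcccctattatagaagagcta
Gm28661: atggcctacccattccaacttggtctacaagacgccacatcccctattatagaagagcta
Gm13341: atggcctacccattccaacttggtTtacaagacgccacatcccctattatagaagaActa

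The diverged copies did have counts. Gm13340 (chr2:22588103-22589647), 97.6% identical to the cytochrome oxidase gene mt-Co1, had a ratio of 1.47 and Gm13341 one of 1.55, both above 0 in 9 of 9 title numbers. As a share of its own counts plus those of mt-Co1, Gm13340 held 0.666% (95% exact interval 0.578% to 0.763%) in high-mitochondrial and 0.664% (0.616% to 0.716%) in intact cells. These intervals overlapped almost wholly. Gm13341, set beside mt-Co1 in the same way, held 0.566% (0.485% to 0.656%) against 0.427% (0.388% to 0.469%), and these intervals did not overlap. Gm29216, 98.8% identical to part of mt-Co1, held 0.166% (0.124% to 0.219%) of its counts plus those of mt-Co1 against 0.0270% (0.0179% to 0.0390%), on 51 and 28 counts. All 51 came from at most 5 cells. In Tomato- cells the Gm13341 share was 0.425% (0.343% to 0.521%) in high-mitochondrial and 0.453% (0.416% to 0.492%) in intact cells. These intervals overlapped, and the direction was the opposite one.

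In the Tomato- cells, which also held cells with progenitor markers, the direction of the Tomato+ differences mostly recurred. Of the 1743 genes higher in Tomato+ cells, 70.6% had a ratio above 0 in Tomato- cells, against 45.5% of all genes. Of the 1877 lower, 84.5% were below 0, against 54.5% of all genes. In Tomato- cells 1587 genes were higher (18.7%) and 2297 lower (27%). There were 697 higher in both, 40.0% of the Tomato+ and 43.9% of the Tomato- genes, and 1036 lower in both, 55.2% and 45.1%. The opposite was also found, with 9.93% of the genes higher in Tomato+ cells lower in Tomato- cells, and 58 genes the other way. List medians in Tomato- cells were 1.69 for nuclear noncoding RNAs (8 of 12 higher), 1.40 for long neuronal genes (17 of 26 higher) and 1.25 for intronic noncoding genes. They were -1.46 for ribosomal proteins (65 of 80 lower), -1.53 for the respiratory chain (52 of 72 lower) and -1.33 for cytosolic housekeeping genes (16 of 30 lower). Transcript length gave medians from -1.09 to 0.55 over its quintiles. Meg3 had a ratio of 2.00, Kcnq1ot1 1.84, Ank2 1.72, Sncg -2.44 and Ftl1 -1.99.

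Markers of other cell types were at low levels in Tomato+ cells on both sides, apart from those of amacrine, horizontal and erythroid cells. Summed CPM was 148.6 against 147.8 for progenitor markers, 140 against 150 for photoreceptor markers and 5.35 against 9.49 for microglial markers. Neurogenic precursor markers were at 90.8 against 145.8, endothelial ones at 20.8 against 9.81 with 8 of 10 at 0, and pigment epithelium ones at 17.3 against 3.69 CPM. Mesenchymal markers were at 3.29 against 2.12, and those of optic stalk and astrocytes at 0 against 3.03. Markers of amacrine and horizontal cells were at 1108 (234.7 to 1776 over title numbers) against 650 (461 to 874), with 5 of 9, among them Ptf1a and Tfap2a, at 0 in the high-mitochondrial cells. At least 3 of these markers were carried, after thinning, by 0 of 57 high-mitochondrial and 0.990% of intact cells. All 7 lens markers were at 0 in the high-mitochondrial cells. Haemoglobin and other erythroid genes stood at 45.1 against 1884 CPM. The intact sum ran from 2.06 to 10155 CPM over title numbers, and the high-mitochondrial sum was above it in 5 of 9. At least 100 counts of the haemoglobin gene Hbb-y were found in 7 intact cells. After thinning, 2.31% of intact and 0 of 57 high-mitochondrial cells carried at least 3 erythroid markers, where a count of 0 allows a share of up to 5.26%. In Tomato- cells the mix differed. After thinning, 96.2% of high-mitochondrial and 73.8% of intact cells carried at least 3 RGC markers, and 42.3% and 58.9% carried at least 3 progenitor markers. Keeping only cells with at least 3 RGC markers was done on the counts before thinning. It kept 97.4% of high-mitochondrial and 92.8% of intact Tomato- cells. The Tomato- list medians were then 1.69 for nuclear noncoding RNAs, 1.36 for long neuronal genes, -1.42 for ribosomal proteins and -1.52 for the respiratory chain. Because few cells were left out, what the cell mix contributes was not tested.

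Of the lower genes, 1080 (57.5%) were below 0 in each of the 9 title numbers, and of the higher genes 7.17% were above 0 in each. The high-mitochondrial pools of single title numbers hold 4 to 16 shallow cells, so genes of few counts are often at 0 in them, and the median of all genes within title numbers ran from -1.46 to -0.28. The median over genes of the SD of the ratio between title numbers was 1.53.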

How the data were processed

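The authors deposited 1 table of whole-number counts per gene and cell for 800 cells, aligned to mm10, and Seurat 2.3 and R 3.4.4 are named, per the submitters' processing notes. The aligner, the counter and the handling of reads with several positions are not given in the sources used here. The column names end in umi, per the file headers, while the labels name SmartSeq2, so whether the counts are molecules or reads is not settled. If they are reads, the counting intervals are too narrow. The table has 801 columns over 49585 gene rows, and 1 column that matches no sample was not used. Symbols on several rows (186 rows) were kept as separate rows and not named.

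The 800 count columns all differed from each other. Cells were divided at 20% mitochondrial counts among those with at least 1000 genes. Counts outside the mt- genes and Rn18s-rs5 were pooled per side, scaled to CPM and compared as log2 ratios with a pseudocount of 10 CPM. Because each side is 1 pool and no animal is named, no test was made, and a gene counts as higher or lower from 2-fold. Title numbers were used for the spread where they held at least 3 high-mitochondrial cells. Intervals are 95% exact Poisson or exact binomial intervals and cover counting error only, and a share of 0 is given with the limit that 3 cells would set. Doublets were not called.

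Named genes are the 10 highest and 10 lowest ratios with 1 sign in at least 80% of title numbers, passing over predicted, repeated, Y-linked and haemoglobin symbols and Xist, and members of the lists with large ratios or well known. Some genes that the rule takes are not reported here. The members and lists were chosen with earlier results of these data known. Positions and lengths came from GENCODE M21 (GRCm38). Python 3.11.15, numpy 2.4.6, pandas 2.3.3, scipy 1.17.1, matplotlib 3.10.9 and Biopython 1.88 were used. TMM factors came from edgeR 4.0.16 and median-of-ratios factors from DESeq2 1.42.0 in R 4.3.3, for scaling only. The ratio computation was tested on simulated counts. Alternatives were other divisions, pseudocounts, filters, scalings, cell weights, depths and subsets of cells.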

Additional observations from a re-analysis of the deposited data

Results flagged for a closer look

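In 6 of 70 groups of ratios within title numbers, 1 title number lay far from the others. Chance flags about 1 in 20 such groups. The summed CPM of mitochondrial import, matrix and carrier genes had a log2 ratio of -2.56 in title number 4 of the Tomato+ cells, against -1.67 to -1.21 in the others. For p53 targets, title number 3 stood at -4.62 against -1.90 to 0.88, and the contralateral genes stood at -0.24 in title number 2 against 0.74 to 1.15. Among the Tomato- cells, the chromatin genes were at -0.81 in title number 14 against -0.19 to 0.37. Fras1 was at -1.76 in title number 3 against 0.74 to 3.29, and Taz at -2.75 in the same title number against 1.12 to 3.52. Title number 3 holds 4 high-mitochondrial cells, the fewest of the 9 used.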

How the results depend on the processing

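No paired analysis was possible because no result comes from a test and the labels name no sample that both sides share. Ratios within title numbers stand in for one below. The 2 alternatives added after seeing the data were the intact cells in the same range of depth (only the range was matched) and leaving out the cell over 40%. For each value that moved, the cause was not tested unless the setting itself gives it. Of the genes described, 20.5% were higher and 22.1% lower in Tomato+ and 18.7% and 27% in Tomato- cells. With a pseudocount of 50 CPM these shares were 8.31% (706 genes) and 10.2% (863), and 9.20% (781) and 8.96% (761). With the mean of ratios within title numbers, where sparse pools hold many zeros, they were 6.15% (522) and 37.5% (3182), and 1.81% and 50.3% (4271). A minimum of 50 CPM, which leaves fewer genes, gave 22.3% lower (990) in Tomato+ cells and 19.9% higher (883) and 24.9% lower (1108) in Tomato- cells. A division at 10% gave 11.1% lower (960) in Tomato+ cells and 10.1% higher (871) and 5.48% lower (474) in Tomato- cells, and one at 30% gave 36.3% (2915) and 48.4% (3884) lower.

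The nuclear noncoding median was 1.41 with 50 CPM added, 1.36 and 1.32 with divisions at 10% and 30%, 1.48 within title numbers and 0.77 in the depth range. The long neuronal median was 1.02 at 10%, 1.07 with TMM factors, 0.97 within title numbers and 0.81 in the depth range. The respiratory chain median was -1.87 with 50 CPM added, -1.49 at 10%, -3.04 within title numbers and -0.85 in the depth range. The ribosomal protein median was -1.43 at 10%, -2.72 within title numbers and -0.97 in the depth range. In Tomato- cells the nuclear noncoding and long neuronal medians were 0.34 and 0.43 within title numbers, and those of the respiratory chain and ribosomal proteins -0.81 and -0.78 at 10%. These 4 list medians kept their sign under every alternative run.

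Leaving out each title number in turn gave 20.3% to 21.1% higher and 22.2% to 24.1% lower genes in Tomato+ cells, and 18.2% to 19.3% and 27.6% to 29.5% in Tomato- cells. The medians ran from 1.71 to 1.92 for nuclear noncoding, 1.25 to 1.46 for long neuronal, -2.41 to -2.35 for respiratory chain and -2.33 to -2.21 for ribosomal protein genes. Of the results at least 2-fold as reported, 5 turned their sign under some setting. In Tomato- cells, the ribosomal RNA repeat loci were at -0.44 with a division at 30% (1.59 at 20%), the contralateral genes at -1.09 with it and -0.22 within title numbers (1.27), and the axon injury genes at 0.17 in the depth range (-1.06), where the intact median of 109908 scaled counts was above the 62057 of the high-mitochondrial cells. Hbb-y went from -4.66 to 1.42 in Tomato+ cells when the 7 cells with at least 100 Hbb-y counts were left out. All 7 were intact cells, so a rise of the Hbb-y ratio is given by the setting itself. Bcl2 (1.04) was at -1.11 with a division at 30%, -0.92 without title numbers 8 and 10 and -0.25 within title numbers, and from -0.19 (without title number 10) to 1.20 when each title number was left out. Smaller values changed sign too, among them the p53 targets in Tomato- cells (0.58), which went down to -1.37, and the hypoxia and glycolysis genes in Tomato+ cells (-0.16), which went up to 1.21. The shallow high-mitochondrial pools limit genes of few counts most.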
